A study of Homo sapiens with 6 samples.

Results

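The 48 genes described here are the autophagy and lysosome genes of a list of symbols, matched by name in the count files. The list was chosen with earlier results of these data known. They comprised 31 genes of the autophagy machinery, the 3 transcription factors TFEB, TFE3 and MITF, and 14 genes of lysosomal membrane and lumen proteins. All 48 were found among the 56638 gene symbols of the count files, ATG101 under its older symbol C12orf44, and all 48 were among the 23074 genes with enough counts to be tested.

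RNA sequencing was performed in a human colorectal cancer cell line after siRNA transfection. The conditions were control siRNA (3 libraries) and siRNA to the long non-coding RNA AF339830, which the study named GLCC1 (3 libraries). The labels name the line SW480, whereas the study's methods name DLD-1 for this experiment, and which line was sequenced was not tested. No other allele, drug or time point separated the conditions, and the labels do not say whether the 3 libraries of a condition came from separate cultures, so that each p-value measures only the spread between these libraries. The question of the comparison was which genes change when GLCC1 is knocked down.

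The conditions were taken from the titles, in which the siRNA name ends in 1 to 3 in each condition. That number is used here as a replicate number, although the titles do not say whether it counts libraries or siRNA sequences. The study used more than 1 siRNA to GLCC1, and which sequence each library received is not stated in the sources used here, so that the 3 libraries are treated as replicates of a knockdown and not of a single siRNA sequence. The library names in another field of the labels attach each group to the opposite siRNA, and under those names the sign of every difference below would turn. GLCC1 itself was not analysed here. FARP1, the gene that holds the GLCC1 locus, had 109, 110.0 and 113 CPM (CPM, the count scaled to the counted pairs of its library with TMM factors) in the control libraries and 63.2, 65.6 and 65.5 CPM in the GLCC1 siRNA libraries (log2 fold change -0.77, SE 0.08, adjusted p = 9.21e-06), which does not measure GLCC1, and 51% of its exon bases are shared with other annotated genes. The libraries held from 11948790 to 19042516 counted pairs. GLCC1 siRNA replicate 2 had the fewest and stood apart from the other libraries of its condition, with a chi-square per degree of freedom of 16.3 and 17.1 against them, where the other pairs within a condition gave 1.84 to 3.84. Read pairs on no gene were 11.2% to 11.5% in the control libraries, 12.7% and 12.5% in GLCC1 siRNA replicates 1 and 3, and 14.2% in replicate 2, and the part of this difference in the results was not tested. Colon epithelial markers were all detected, 6 of 8 were lower under GLCC1 siRNA, and KRT8 had the highest level of them. Of the 12 leukocyte, fibroblast and endothelial markers, 5 passed the filter on low counts. PTPRC, DCN, PECAM1 and CDH5 had 0 counts in every library, while COL1A1, a collagen gene listed as a fibroblast marker, lay at 11.8 to 15.0 CPM in the control libraries and 6.68 to 7.94 CPM in the GLCC1 siRNA libraries.

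Autophagy delivers cytoplasmic material to the lysosome. The ULK complex starts it, the class III PI3-kinase complex marks the forming membrane, conjugation enzymes attach proteins of the ATG8 family to that membrane, and cargo receptors tie the load to them. The lysosome then digests the load with acid hydrolases, and the MiT/TFE factors TFEB, TFE3 and MITF are known to activate lysosomal and autophagy genes.

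Most of the 14 lysosomal genes listed were lower in the GLCC1 siRNA libraries, whereas the 31 genes of the autophagy machinery were mixed. The further lists of lysosomal genes given below held both lower and higher genes. Of the 48 genes, 20 were lower and 3 were higher at an adjusted p under 0.05 (edgeR's quasi-likelihood test, Benjamini-Hochberg adjustment over all 23074 genes), and 25 did not pass. Genes that passed are termed called. Among all genes tested, 16.7% were lower and 14.9% higher. Since all 48 genes averaged 1 CPM or more, the 14875 genes at that level are the closer background, and of these 24.8% were lower and 20.3% higher. The 48 genes had 41.7% lower and 6.25% higher, and their median log2 fold change was -0.23, beside -0.03 for the 14875 genes. In bulk RNA, fewer cells of a kind and less RNA per cell cannot be told apart. The summed level of the 8 colon epithelial markers was 5642 to 6179 CPM in control and 2262 to 2698 CPM in GLCC1 siRNA libraries. KRT8 made up the largest part of the sum, averaging 3584 and 1177 CPM. VIL1 went the other way, averaging 205 and 237 CPM, and neither it nor CDX2 was called. The part of the shift in this sum in the results was not tested.

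By role, 10 of the 14 lysosomal genes were lower and 0 higher, beside 9 lower and 3 higher of the 31 autophagy genes and 1 lower of the 3 MiT/TFE factors. The 4 lysosomal membrane genes were all lower, as were 6 of 10 lumen genes, 2 of 5 of the ULK complex, 2 of 4 of the PI3-kinase complex, 3 of 8 conjugation genes, 1 of 4 of the ATG8 family and 1 of 5 cargo receptors. The 3 higher genes were ATG10, WIPI2 and SQSTM1. The shares of lower genes were 71.4% for the lysosomal and 29.0% for the autophagy genes, and their difference was not tested. Among the 14875 genes averaging 1 CPM or more, 24.8% were lower, near the share of the autophagy genes. Of the autophagy genes 9.68% were higher, beside 20.3% of the 14875. Role groups of 4 or 5 genes are too small for a share of their own to be read against these.

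The counts of the 48 genes and those of all genes moved with the scaling and with 1 library. Scaled by library totals alone, 15 of the 48 genes were lower and 9 higher, beside 17.9% and 28.3% of the 14875 genes, while the median of all genes tested moved from 0.03 to 0.15 on the log2 scale. With that scaling 7 lysosomal genes were lower and 1 higher, and 7 autophagy genes were lower and 8 higher. ATG4B, CTSA, GLA, LAMP2 and UVRAG then lost their call, while ATG14, CALCOCO2, MAP1LC3B, NPC2, TAX1BP1 and ULK2 were called higher. Without GLCC1 siRNA replicate 2, 23 of the 48 were lower and 7 higher, beside 32.1% and 27.7% of the 14875 genes, with 10 lower and 2 higher among the lysosomal genes and 12 lower and 5 higher among the autophagy genes.

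**Figure D1:**
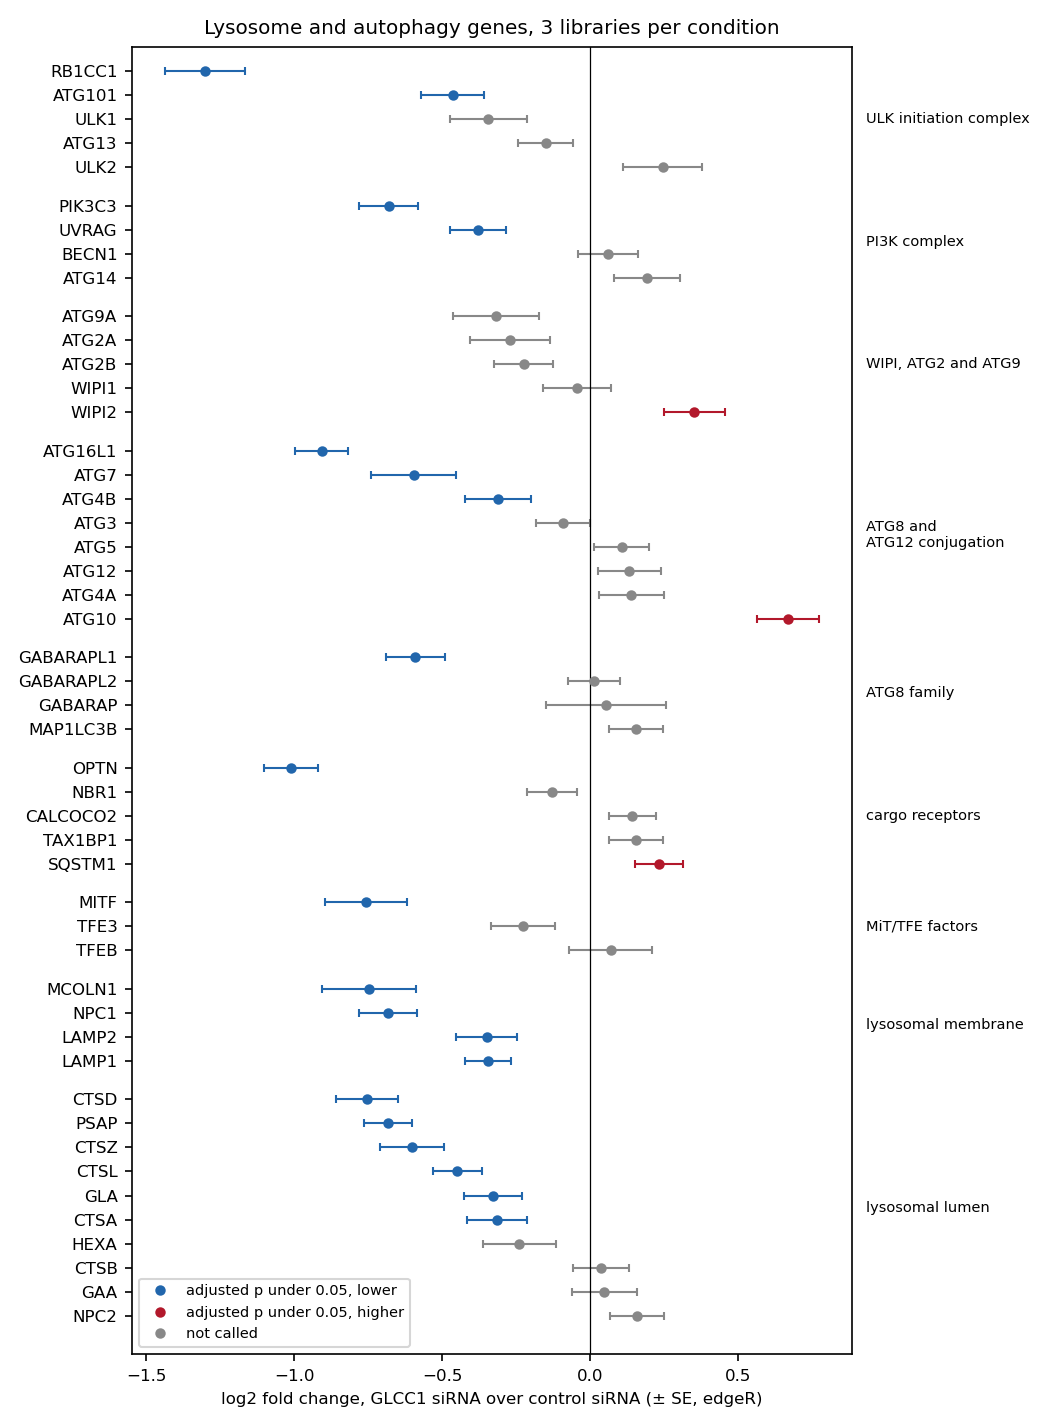
The log2 fold change (GLCC1 siRNA over control siRNA, x axis) of each of the 48 genes with its standard error from edgeR (bars), grouped by role. The 20 lower genes (blue) reach from RB1CC1 at -1.30 to ATG4B at -0.31, and the 3 higher genes (red) are ATG10 at 0.67, WIPI2 at 0.35 and SQSTM1 at 0.23.

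At the step that starts autophagy, RB1CC1 (also called FIP200), the large scaffold of the ULK complex, had the lowest fold change of the 48 genes. Its level was 112, 113 and 118 CPM in the control libraries and 39.2, 59.6 and 40.6 CPM in the GLCC1 siRNA libraries (log2 fold change -1.30, SE 0.13, adjusted p = 8.73e-06). The conditions lay far apart, although replicate 2 stood above the other GLCC1 siRNA libraries. ATG101, which binds ATG13 in the same complex, was lower to a smaller degree (log2 fold change -0.47, SE 0.11, adjusted p = 0.00395), and 42.8% of its exon bases are shared with another annotated gene, so that its count is less certain. The kinase genes ULK1 and ULK2 did not pass the test, with log2 fold changes of -0.34 and 0.25, and neither did ATG13 with a log2 fold change of -0.15. ULK1 passed edgeR's test without GLCC1 siRNA replicate 1 (adjusted p = 0.029), and passed under DESeq2 with an adjusted p of 0.047, on the other side of the threshold from edgeR's 0.0620.

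PIK3C3, the lipid kinase VPS34 of the class III PI3-kinase complex, lay at 54.4, 51.6 and 53.6 CPM in control and 30.7, 37.6 and 31.6 CPM in GLCC1 siRNA libraries (log2 fold change -0.68, SE 0.10, adjusted p = 0.000167). These values do not overlap. UVRAG, the subunit of the complex that acts in endosomal traffic and autophagosome maturation, was also lower (log2 fold change -0.38, SE 0.10, adjusted p = 0.00781), though not with library totals as the scaling (adjusted p = 0.0548). BECN1, the regulatory core subunit, and ATG14, which directs the complex to autophagosome formation, had log2 fold changes of 0.06 and 0.19 and did not pass, and share 37.7% and 22.2% of their exon bases with other genes. Thus the catalytic subunit and UVRAG were lower while BECN1 and ATG14 were not called.

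Among genes for membrane supply, WIPI2, which binds the lipid made by PIK3C3 and recruits ATG16L1, was the 1 gene called. It had 64.4, 66.9 and 69.7 CPM in control and 89, 72.9 and 94.3 CPM in GLCC1 siRNA libraries (log2 fold change 0.35, SE 0.10, adjusted p = 0.0176). It lost its call when any one library other than GLCC1 siRNA replicate 2 was left out (adjusted p of 0.0527 to 0.0865). Its paralog WIPI1 had a log2 fold change of -0.04. The lipid transfer genes ATG2A and ATG2B and the lipid scramblase gene ATG9A had log2 fold changes between -0.32 and -0.23 and did not pass. Exon bases are shared with other genes for 48.6% of ATG9A. Its replicate 2 stood at 70.5 CPM beside 115 and 112 CPM in the other GLCC1 siRNA libraries.

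The conjugation genes moved in both directions. ATG16L1, the protein that positions the conjugation enzyme on the membrane, had 81.4, 79.1 and 76 CPM in control and 41.5, 39.9 and 44.4 CPM in GLCC1 siRNA libraries (log2 fold change -0.91, SE 0.09, adjusted p = 4.84e-06). ATG7, the E1-like enzyme shared by the ATG12 and ATG8 systems, had 19.5, 20.9 and 19.4 CPM in control and 15.8, 10.02 and 13.3 CPM in GLCC1 siRNA libraries (log2 fold change -0.60, SE 0.14, adjusted p = 0.0059). Both were lower in every GLCC1 siRNA library than in every control library, although 29.9% of the exon bases of ATG7 are shared with VGLL4. ATG10, the E2-like enzyme of the ATG12 system, went the other way, with 16.7, 17.4 and 15.6 CPM in control and 25.1, 28.2 and 25.8 CPM in GLCC1 siRNA libraries (log2 fold change 0.67, SE 0.10, adjusted p = 0.000258). The protease gene ATG4B was lower (log2 fold change -0.31, SE 0.11, adjusted p = 0.0491) but not without any one control library (adjusted p of 0.0819 to 0.192), whereas its paralog ATG4A and ATG3, ATG5 and ATG12 had log2 fold changes from -0.09 to 0.14 and did not pass.

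Of the ATG8 family, the ubiquitin-like proteins that coat the autophagosome, only GABARAPL1 passed. It had 30.2, 34.8 and 31.2 CPM in control and 20.9, 21 and 22.04 CPM in GLCC1 siRNA libraries (log2 fold change -0.59, SE 0.10, adjusted p = 0.000486). GABARAPL2 and MAP1LC3B had log2 fold changes of 0.01 and 0.15 with standard errors of 0.09 and 0.09. GABARAP was counted at only 2.70 to 3.97 CPM, and 68.2% of its exon bases overlap another gene, which leaves its value (0.05, SE 0.20) imprecise.

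Among the cargo receptors, OPTN, which links ubiquitin-marked mitochondria and bacteria to ATG8 proteins, was lower and SQSTM1 was higher. OPTN (hg19 chr10:13141449-13180308) had 85.8, 90.2 and 81.8 CPM in control and 39.5, 44.3 and 44.2 CPM in GLCC1 siRNA libraries (log2 fold change -1.01, SE 0.09, adjusted p = 2.54e-06), so that its mean level fell by 50.4% in the fit. SQSTM1, which encodes p62, had 553, 610.3 and 589.6 CPM in control and 695, 631 and 733 CPM in GLCC1 siRNA libraries (log2 fold change 0.23, SE 0.08, adjusted p = 0.0438). The difference of SQSTM1 was small and lost its call when any one library other than GLCC1 siRNA replicate 2 was left out (adjusted p of 0.0823 to 0.196), and 55.7% of its exon bases are shared with other annotated genes. NBR1, TAX1BP1 and CALCOCO2 had log2 fold changes from -0.13 to 0.16 and did not pass.

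**Figure D2:**
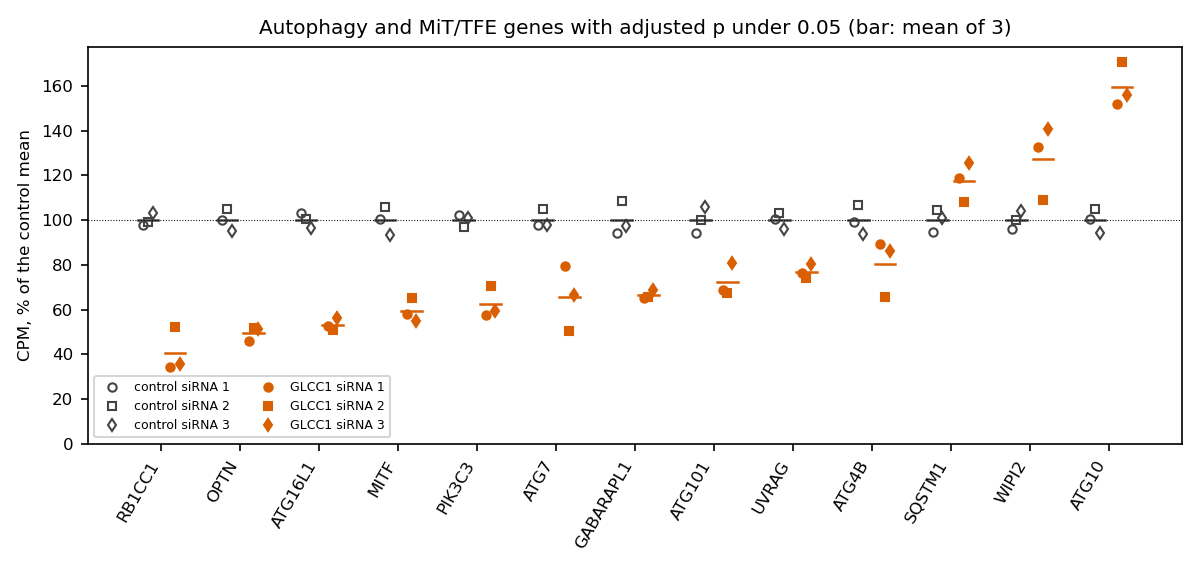
Level of the 13 autophagy and MiT/TFE genes with an adjusted p under 0.05 in each of the 6 libraries, in percent of the mean of the 3 control libraries (y axis, from 0), with control siRNA as open and GLCC1 siRNA as filled symbols and the mean of 3 as a line. The 13 genes were chosen by their difference between these conditions, so that the lack of overlap in all 13 is no further support. GLCC1 siRNA replicate 2 (filled squares) lies closest to the control libraries for RB1CC1, PIK3C3, MITF, WIPI2 and SQSTM1, among others.

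Of the MiT/TFE factors, MITF was lower and the others were not called. MITF had 9.19, 9.7 and 8.55 CPM in control and 5.32, 5.96 and 5.03 CPM in GLCC1 siRNA libraries (log2 fold change -0.76, SE 0.14, adjusted p = 0.000888). TFE3 had 61.2, 68.4 and 61.6 CPM in control and 56.8, 46.2 and 60.02 CPM in GLCC1 siRNA libraries (log2 fold change -0.23, SE 0.11, adjusted p = 0.126). TFEB had 6.92, 7.55 and 6.99 CPM in control and 7.35, 6.68 and 8.39 CPM in GLCC1 siRNA libraries (log2 fold change 0.07, SE 0.14, adjusted p = 0.745). The groups overlap for TFEB and do not for TFE3. Per kilobase of transcript, TFE3 was the most abundant of the 3 in the control libraries, at 19.4 CPM per kilobase beside 3.07 for TFEB and 1.91 for MITF.

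These factors bind the E-box CACGTG, and lysosomal promoters are known for a longer form of it, the CLEAR element. RefSeq promoters of 300 bases (GRCh38.p14, 250 bases before the start site and 50 after it) were found for 42 of the 48 genes, in 54 windows, and were searched on both strands. CACGTG was found in 7 of the 54 windows (12.96%) against 7.26% of all 35116 promoters, TCACGTGA, which contains CACGTG, in 5 (9.26%) against 0.98%, and the CLEAR element, which contains both, in 2 (3.70%) against 0.35%. The 7 genes were ATG14, ATG3, CTSA, CTSD, GAA, LAMP1 and MCOLN1, and of these CTSA, CTSD, LAMP1 and MCOLN1 were lower while ATG14, ATG3 and GAA were not called. The lower genes among these are all lysosomal, a group in which 10 of 14 were lower with or without the word. Of the lysosomal genes with a promoter but no CACGTG, CTSL, CTSZ, GLA and NPC1 were lower and NPC2 was not called. Whether the word goes with the calls was not tested. The 3 promoters with 2 copies of TCACGTGA are given next, with the E-box words in capitals, since MCOLN1 and LAMP1 were lower and GAA, which holds 2 CLEAR elements, was not called. Such matches describe the letters only.
MCOLN1 (GRCh38.p14 chr19:7522374-7522673, plus strand): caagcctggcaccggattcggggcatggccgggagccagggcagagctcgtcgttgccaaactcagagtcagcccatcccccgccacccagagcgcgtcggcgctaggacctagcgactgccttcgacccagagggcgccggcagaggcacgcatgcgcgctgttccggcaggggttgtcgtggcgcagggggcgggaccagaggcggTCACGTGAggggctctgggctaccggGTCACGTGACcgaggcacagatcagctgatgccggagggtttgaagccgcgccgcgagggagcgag
LAMP1 (GRCh38.p14 chr13:113296989-113297288, plus strand): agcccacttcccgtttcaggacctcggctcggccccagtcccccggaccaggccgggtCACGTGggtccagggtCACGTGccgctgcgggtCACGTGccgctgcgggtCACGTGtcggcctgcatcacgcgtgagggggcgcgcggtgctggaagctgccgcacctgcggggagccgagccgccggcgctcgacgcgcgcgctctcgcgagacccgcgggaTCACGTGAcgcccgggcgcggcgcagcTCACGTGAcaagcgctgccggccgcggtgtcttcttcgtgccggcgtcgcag
GAA (GRCh38.p14 chr17:80101331-80101630, plus strand): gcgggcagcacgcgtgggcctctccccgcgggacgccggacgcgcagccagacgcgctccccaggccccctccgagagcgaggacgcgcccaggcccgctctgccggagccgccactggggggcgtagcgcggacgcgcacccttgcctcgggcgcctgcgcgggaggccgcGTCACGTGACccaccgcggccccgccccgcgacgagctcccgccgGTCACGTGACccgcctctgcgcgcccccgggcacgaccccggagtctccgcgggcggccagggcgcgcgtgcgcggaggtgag
The first base of CACGTG lay 41 and 14 bases upstream of the start site in MCOLN1 and 76 and 31 bases upstream in GAA, and the 6 words of LAMP1 lay between 192 bases and 1 base upstream.

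The 4 lysosomal membrane genes were lower. MCOLN1, a calcium channel of the lysosome, had 10.97, 12.3 and 9.46 CPM in control and 7.2, 5.09 and 6.99 CPM in GLCC1 siRNA libraries (log2 fold change -0.75, SE 0.16, adjusted p = 0.00253). NPC1, which exports cholesterol from the lysosome, had 90.8, 91.3 and 84.4 CPM in control and 57.8, 48.4 and 59.3 CPM in GLCC1 siRNA libraries (log2 fold change -0.68, SE 0.10, adjusted p = 0.000122). Both were lower in every GLCC1 siRNA library. LAMP1 and LAMP2, the abundant glycoproteins of the lysosomal membrane, changed by less, with log2 fold changes of -0.35 (SE 0.08, adjusted p = 0.00346) and -0.35 (SE 0.10, adjusted p = 0.019). LAMP2 lost its call when any one library other than GLCC1 siRNA replicate 2 was left out (adjusted p of 0.0555 to 0.0925). NPC2, the luminal partner that hands cholesterol to NPC1, had a log2 fold change of 0.16 and did not pass, while NPC1 was lower.

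PSAP (hg19 chr10:73576055-73611008), the precursor of the saposins that assist sphingolipid breakdown, had the highest CPM per kilobase of the 48 genes in the control libraries, at 316. It had 825, 917 and 861 CPM in control and 538, 505 and 577 CPM in GLCC1 siRNA libraries (log2 fold change -0.68, SE 0.08, adjusted p = 2.62e-05). The lowest control library stood above the highest GLCC1 siRNA library by a wide margin. At 206 and 135 CPM per kilobase, SQSTM1 and LAMP1 followed in the control libraries. In the GLCC1 siRNA libraries SQSTM1, at 242 CPM per kilobase, stood above PSAP at 196. The length used includes shared exon bases, 55.7% for SQSTM1, so that its place in this order is less certain.

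The cathepsins differed among themselves. CTSD, the main aspartic protease of the lysosome (hg19 chr11:1773982-1785803), had 57.05, 68.9 and 66.8 CPM in control and 39.6, 33.96 and 40.4 CPM in GLCC1 siRNA libraries (log2 fold change -0.76, SE 0.11, adjusted p = 0.000106), though 62.1% of its exon bases overlap another gene. CTSZ, a cysteine carboxypeptidase, had 110.2, 119 and 114 CPM in control and 72.9, 64.8 and 88.3 CPM in GLCC1 siRNA libraries (log2 fold change -0.60, SE 0.11, adjusted p = 0.000748). Neither gene's conditions overlap. CTSL, a cysteine endopeptidase, had 69.7, 68.9 and 68.3 CPM in control and 49.7, 50.5 and 51.3 CPM in GLCC1 siRNA libraries (log2 fold change -0.45, SE 0.08, adjusted p = 0.000969), with little spread within each condition. CTSA, a carboxypeptidase that also protects other hydrolases, was lower by less (log2 fold change -0.32, SE 0.10, adjusted p = 0.0309), and lost its call without any one control library (adjusted p of 0.0562 to 0.152). CTSB, with the highest CPM per kilobase of the listed cathepsins in the control libraries (80.8), had a log2 fold change of 0.04 (SE 0.09) and did not pass. The length used includes shared exon bases, 62.1% for CTSD, so that this order is less certain.

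Of the glycosidases, GLA, the alpha-galactosidase lost in Fabry disease, was lower (log2 fold change -0.33, SE 0.10, adjusted p = 0.0204), though not without control replicate 1 or 3 or GLCC1 siRNA replicate 1 (adjusted p of 0.0834 to 0.106). GAA, the acid alpha-glucosidase lost in Pompe disease, had 117, 133 and 119 CPM in control and 139, 104 and 138 CPM in GLCC1 siRNA libraries, and its log2 fold change was 0.05. GLCC1 siRNA replicates 1 and 3 lay above every control library, and replicate 2 lay below every one. Without replicate 2 GAA was higher (log2 fold change 0.17, adjusted p = 0.00939). HEXA, the alpha subunit of hexosaminidase, did not pass (-0.24, SE 0.12), although every GLCC1 siRNA library lay below every control library.

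**Figure D3:**
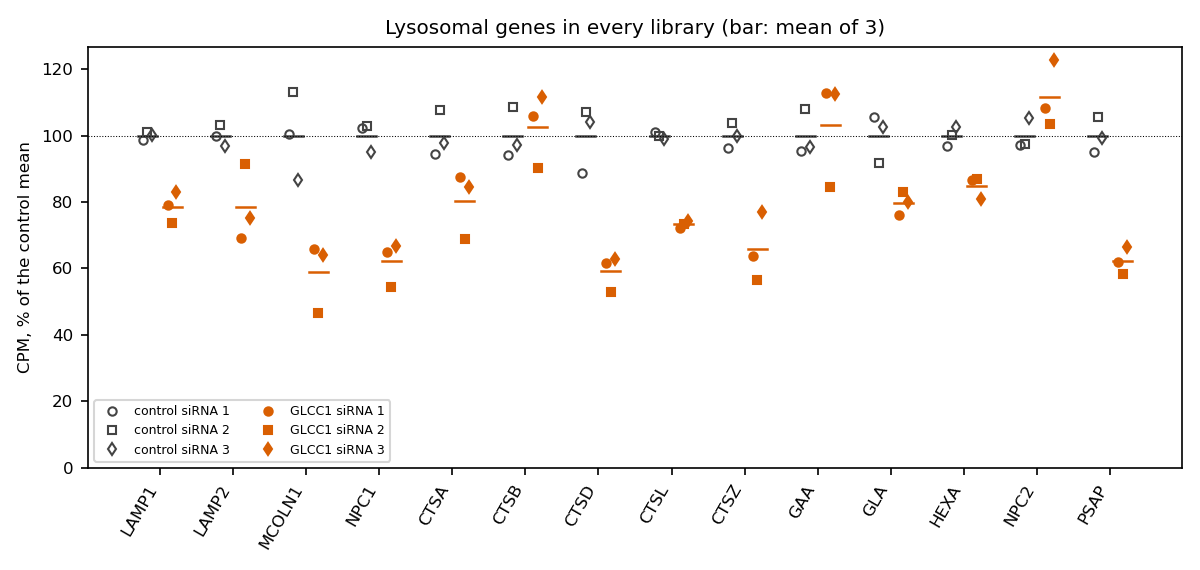
Level of the 14 lysosomal genes in each of the 6 libraries, in percent of the mean of the 3 control libraries (y axis, from 0), with control siRNA as open and GLCC1 siRNA as filled symbols and the mean of 3 as a line. Filled symbols lie below all open ones for 11 of the 14 genes, and overlap them for CTSB, GAA and NPC2. Of the 14875 genes averaging 1 CPM or more, 4818 were lower and 3971 higher without overlap of the conditions.

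Replicate 2 of the GLCC1 siRNA libraries deviated from the other 2 along the GC content of the transcripts. The log2 of its level over their mean ran from -0.69 (ATG9A) to 0.58 (RB1CC1) and passed 0.3 in either direction for 17 of the 48 genes, whereas each control library passed it for 1. Across the 48 genes, which share these libraries, this deviation had a Pearson's r of -0.81 and a Spearman's rho of -0.84 with the GC content, which ran from 36.0% to 64.8%. The fold changes themselves had an r of -0.10 with GC content with all 6 libraries and 0.07 without replicate 2. For the control libraries the same r was between -0.41 and 0.43. Without GLCC1 siRNA replicate 2, ATG2B (-0.29, adjusted p = 0.000281), NBR1 (-0.19, adjusted p = 0.00433) and ULK1 (-0.20, adjusted p = 0.0157) were also lower, and CALCOCO2 (0.13, adjusted p = 0.0454), NPC2 (0.21, adjusted p = 0.00301) and ULK2 (0.36, adjusted p = 0.00402) were also higher, where the brackets give the log2 fold change and edgeR's adjusted p. The cause of the deviation and its part in these calls were not tested.

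**Figure D4:**
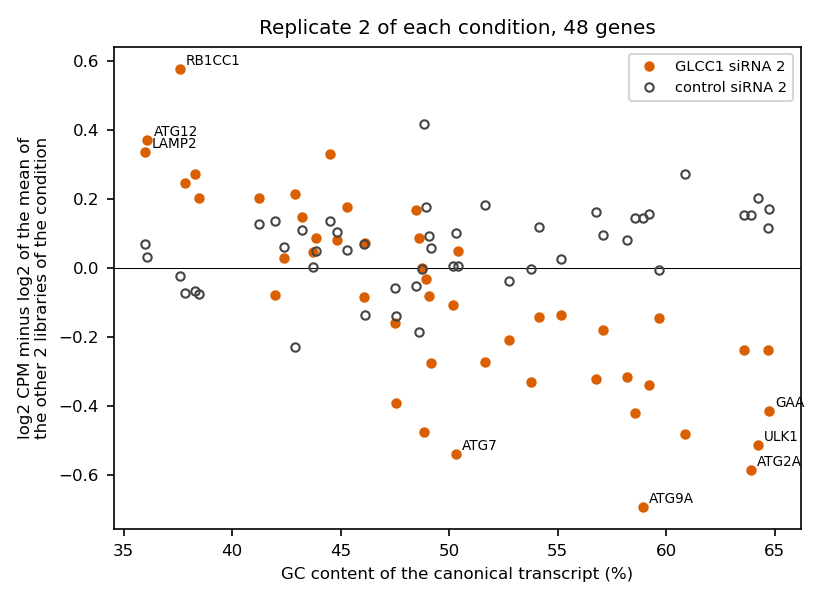
Deviation of replicate 2 from the mean of the other 2 libraries of its condition (log2, y axis) against the GC content of the canonical transcript (percent, x axis) for the 48 genes, with GLCC1 siRNA as filled and control siRNA as open points. The filled points fall from RB1CC1 at 0.58 to ATG9A at -0.69, and the open points stay between -0.23 and 0.42.

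Other genes of the lysosome and of autophagy were read from 7 lists of 136 symbols, 131 of which were tested. Of these, 39 (29.8%) were lower and 14 (10.7%) higher, beside 24.8% and 20.3% of the genes averaging 1 CPM or more and 16.7% and 14.9% of all genes tested, and their median log2 fold change was -0.15. With library totals as the scaling, 25 were lower and 26 higher, beside 17.9% and 28.3% of the genes averaging 1 CPM or more at that scaling. In the lists of lysosomal proteins, 8 of 17 other membrane and sorting genes (47.1%), 13 of 34 other hydrolases and cofactors (38.2%) and 8 of 22 V-ATPase genes (36.4%) were lower, and 3, 4 and 3 were higher. Whether these shares differ from the background was not tested.

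Among the hydrolases, PPT1, the palmitoyl thioesterase lost in infantile Batten disease, had the lowest fold change of any gene in these lists or of the 48. It had 157, 159 and 163 CPM in control and 30.6, 29.3 and 31.8 CPM in GLCC1 siRNA libraries (log2 fold change -2.38, SE 0.09, adjusted p = 3.79e-09). NEU1, the lysosomal sialidase that CTSA protects, and IDS, a sulfatase, had log2 fold changes of -1.37 and -0.91. LAPTM4B, a lysosomal membrane protein, CLN3, another Batten disease gene, and SORT1, a sorting receptor, had log2 fold changes of -1.79, -1.16 and -0.93. The exon bases of CLN3 (100%) and IDS (90.7%) are shared with other annotated genes, so that their counts are less certain. All 6 genes were lower in every GLCC1 siRNA library than in every control library. They were named for their large called differences, so that this adds no support.

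The proton pump that acidifies the lysosome was split. ATP6V1A, its catalytic subunit, had 126, 124 and 130.1 CPM in control and 33.3, 44.8 and 36.02 CPM in GLCC1 siRNA libraries (log2 fold change -1.74, SE 0.11, adjusted p = 1.29e-07), and the membrane subunit ATP6V0E2 fell by 50.01%. The stalk subunit ATP6V1G1 was higher (log2 fold change 0.78, SE 0.09, adjusted p = 3.16e-05).

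For Ragulator, Rag and mTORC1, the nutrient sensor on the lysosome, 2 of 21 genes (9.52%) were lower and 2 higher, beside the 24.8% and 20.3% of the background. FNIP2, a partner of folliculin, was higher (log2 fold change 1.42, SE 0.10, adjusted p = 3.24e-07), and RHEB, the activator of mTORC1, and TSC1, part of the complex that restrains RHEB, had log2 fold changes of -0.51 and -0.42. In autophagosome fusion, 4 of 12 genes were lower and 1 higher, led by VPS41 of the HOPS tether with a log2 fold change of -1.07, with VPS11 at -0.47 and VPS18 at -0.35. Of the other autophagy core genes, 3 of 16 were lower and 1 higher. They included PIK3R4, the VPS15 subunit that anchors PIK3C3, with a log2 fold change of -0.69, beside WDR45B at -0.44 and AMBRA1, a regulator of BECN1, at 0.47. Of 9 mitophagy and ER-phagy genes, 1 was lower, PINK1, the kinase that marks damaged mitochondria, with a log2 fold change of -1.02, and 58.1% of its exon bases are shared with other annotated genes.

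**Figure D5:**
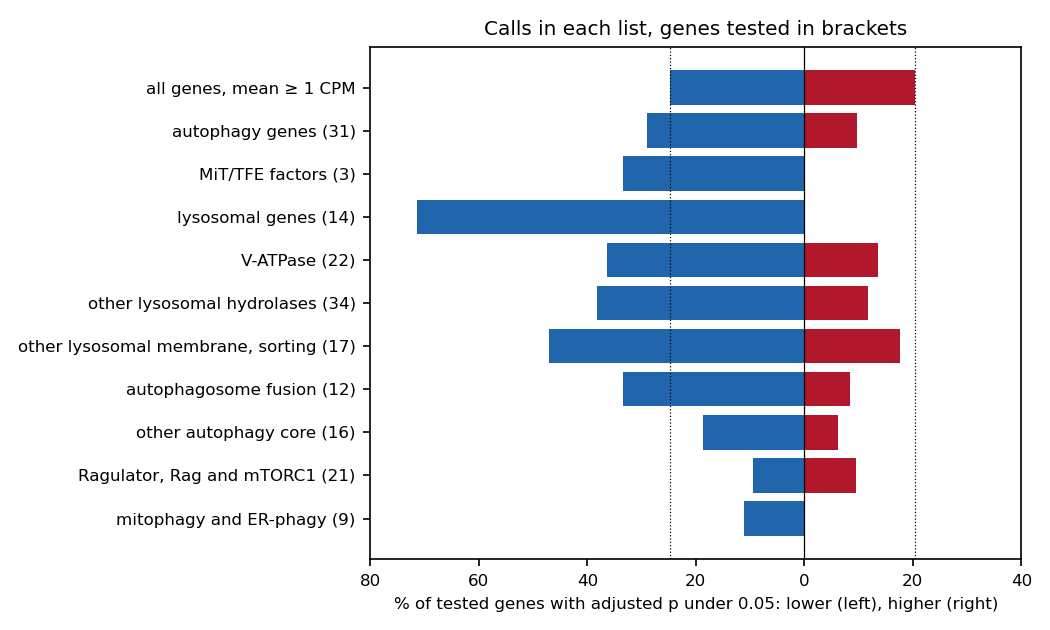
Share of tested genes with an adjusted p under 0.05 that were lower (left, blue) or higher (right, red) in each list (percent, x axis), with the number tested in brackets. Dotted lines mark the 24.8% and 20.3% of all genes averaging 1 CPM or more, and the 14 lysosomal genes reach 71.4% lower.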

How the data were processed

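RNA was measured in 6 libraries, 3 per condition, grouped by title. The deposited files hold raw read-pair counts for each gene symbol, which the authors made by mapping to hg19 with TopHat (TopHat2 2.0.11 in the submitters' processing notes) and counting with HTSeq in union mode, which leaves out reads shared by overlapping genes. Tallies of pairs on no gene, 11.2% to 11.5% in control and 12.5% to 14.2% in GLCC1 siRNA libraries, were removed. Genes with fewer than 5 counts summed in both conditions were removed, as in the study's methods. TMM factors were 0.950 to 1.05, and edgeR 4.0.16 (robust quasi-likelihood, R 4.3.3) was fitted over 23074 genes, with DESeq2 1.42.0 as an alternative. No exact permutation test of 3 against 3 libraries can fall below 0.1. At 2.70 to 3.97 CPM in single libraries the SE of GABARAP was 0.20, and at 505 to 917 CPM that of PSAP was 0.08. Gene positions and canonical transcripts are from GENCODE 44 lifted to hg19, promoters from RefSeq GRCh38.p14. The shares of shared exon bases count GENCODE 44 genes on either strand. The counts were made with the study's own annotation, in which these overlaps can differ. The procedure was tested on simulated data. The 48 genes and all lists were chosen with earlier results of these data known. Among the 48 genes, values in every library are given for those with an adjusted p under 0.05 and a log2 fold change of at least 0.5 in size, for the 3 MiT/TFE factors and for some others chosen after their values were seen. From each of the 7 further lists, at most the 3 called genes with the largest fold change were named, with values in every library for a few.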

Additional observations from a re-analysis of the deposited data

How the results depend on the processing

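With library totals as the only scaling, 9 of the 48 genes were higher, 8 of them autophagy genes and 1 a lysosomal gene. Of the 131 further pathway genes tested, 25 were lower and 26 higher, beside 17.9% and 28.3% of the genes averaging 1 CPM or more. The log2 fold changes of ATG3 (0.032) and WIPI1 (0.078) turned positive. At an adjusted p under 0.001, 11 of the 48 were lower and 1 higher, and the share of all genes at that threshold was not counted. Under the conditions of the library names, 3 were lower and 20 higher. Leaving out each library in turn gave 16 to 23 lower and 1 to 7 higher genes, 7 to 10 lower and 0 to 2 higher lysosomal genes, 8 to 12 lower and 1 to 5 higher autophagy genes, and 27 to 52 lower and 9 to 26 higher further pathway genes. The highest count of higher genes in each came without GLCC1 siRNA replicate 2. In the same fits the counts over all genes tested moved as well, from 2833 to 5076 lower and from 2381 to 4844 higher. SQSTM1, WIPI2 and LAMP2 lost their call without any one library other than GLCC1 siRNA replicate 2, ATG4B and CTSA without any one control library, and GLA without GLCC1 siRNA replicate 1 or control replicate 1 or 3. Log2 fold changes that turned sign when 1 library was left out were those of CTSB (-0.026 to 0.12), GAA (-0.016 to 0.17), GABARAP (-0.046 to 0.21), GABARAPL2 (-0.024 to 0.046) and TFEB (-0.020 to 0.14), none of them called with all 6 libraries. With the replicate number as a block, 17 of the 48 were lower and 2 higher, beside 3513 and 3009 of all genes tested. Same-numbered libraries had correlations of -0.32 to -0.01 in their deviations over 14875 genes, beside -0.27 to 0.29 for differently numbered ones. Deviations within 3 libraries per condition cannot show whether the numbers pair the libraries, which was not tested. Under DESeq2, 21 of the 48 were lower and 3 higher, beside 3584 and 3139 of all genes tested. The cause of these changes was not tested. The smallest library had 11948790 counted pairs, which limits the low genes such as GABARAP.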
